A study of Mus musculus with 9 samples.

Results

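Genes of the cytosolic ribosomal proteins were compared between mouse dorsal root ganglia (DRG) taken after the sciatic nerve was cut and uninjured DRG. The genes were taken by name. They were all genes on the array named Rpl, Rps or Rplp followed by a digit, or Rpsa. The Rps6k kinases and names holding -ps, the mark of pseudogenes, or -like were left out. Related genes named with an added l, namely Rpl3l, Rpl7l1, Rpl22l1, Rpl36al and Rps27l, stayed in. This gave 82 genes with 137 probes. Probes were kept where the DRG signal was well above background on at least 4 of the 9 arrays, which left 133 probes and all 82 genes, and the brightest probe stood for each gene. They were 82 of 20899 genes tested, and the rule used no measured difference. The name rule also took in Rps19bp1, whose product binds Rps19 and is not itself a ribosomal protein.

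The ribosome that translates nuclear mRNAs in the cytosol is built from ribosomal RNA and a fixed set of proteins, of which the Rps proteins and Rpsa belong to the small subunit and the Rpl and Rplp proteins to the large one. The small subunit reads the mRNA and the large subunit forms the peptide bond. The mRNAs of these proteins are among the most abundant in most cells, and many begin with a run of pyrimidines (a 5′ terminal oligopyrimidine tract, TOP) through which the mTOR pathway sets how well they are translated. Axons cut in a peripheral nerve regrow from sensory neurons of the DRG, which depend on new protein for it.

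Total RNA of L3/L4 DRG of adult mice was hybridised to two-colour arrays, with 4 uninjured samples and 5 injured samples taken 3 days after sciatic nerve transection. The paper's methods give this time and these ganglia, while its results text describes L4 ganglia at an earlier time after transection. Which of these holds for the samples was not settled here. All 9 samples of both groups had the labels cre.neg and jun.wt, so no animal compared here was labelled as carrying a Cre or a changed Jun gene. On every array Cy5 marked the DRG RNA and Cy3 a commercial universal reference RNA of the mouse, with no dye swap, and a level below is the log2 ratio of DRG over reference. The labels name no animals and do not say whether ganglia were pooled or whether uninjured ganglia came from the injured animals, so p-values measure the spread between these samples, which may be technical.

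The tissue label and the injury label were checked first. All 10 sensory neuron markers that could be tested lay above the reference in both groups, from a mean log2 ratio of 2.15 for Scn9a to 10.02 for Nefl in uninjured DRG. All 5 injury genes checked rose, Atf3 by 5.14 and Gap43 by 0.62. The arrays lay on 3 slides, of which the first held 3 uninjured, the second 1 uninjured (uninjured 1) with 3 injured (injured 1, 2 and 5) and the third 2 injured arrays, so slide and injury overlapped in large part. Between 71.0% and 78.9% of spots were well above background in Cy5.

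The promoter table of RefSeq (build GRCm38.p6) held 61 of the 82 genes. In a window from 10 bases before the annotated start to 19 bases after its first base, the 5 called genes with the largest rise and the 4 genes with the lowest change among the 61 are printed, to show what the mRNA starts look like at both ends of the response. Capitals mark the longest run of C and T that began with C within 10 bases of the annotated start, where it had at least 5 bases. Rpl41 and Rpl7l1 have no such run. The first 5 genes were called higher after injury (below) and the last 4 were not.

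Rpl35 (chr2:39005112-39005141, minus strand): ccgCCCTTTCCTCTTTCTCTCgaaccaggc

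Rpl12 (chr2:32961702-32961731, plus strand): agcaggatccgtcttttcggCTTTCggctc

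Rps2 (chr17:24720053-24720082, plus strand): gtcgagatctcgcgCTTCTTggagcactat

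Rpl41 (chr10:128549149-128549178, minus strand): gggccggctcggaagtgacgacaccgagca

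Rpl7a (chr2:26910797-26910826, plus strand): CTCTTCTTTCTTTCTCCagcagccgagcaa

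Rpl14 (chr9:120571507-120571536, plus strand): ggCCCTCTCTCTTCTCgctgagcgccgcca

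Rpl27a (chr7:109519185-109519214, plus strand): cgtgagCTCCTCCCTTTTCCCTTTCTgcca

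Rpl3l (chr17:24727816-24727845, plus strand): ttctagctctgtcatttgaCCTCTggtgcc

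Rpl7l1 (chr17:46782637-46782666, minus strand): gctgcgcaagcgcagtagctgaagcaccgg

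Such a pyrimidine run was found in 25 of the 61 ribosomal protein genes (41.0%), in 26.5% of the 13056 tested genes with an entry, and in 39.1% of 69 mitochondrial ribosomal protein genes. The shorter strings CTTTC or CTTTT were read on the mRNA strand in the same 30 bases and overlap the runs in part. They stood in 24.6% of the ribosomal protein genes, 5.4% of the tested genes and 1.4% of the mitochondrial genes. A run counted only where its first base was C. Stretches that open with T, as in Rpl28, Rpl38, Rplp2 and Rps26, hold such a string but were not counted as runs. In the 300 bases around the start, CCGGAAG on either strand was in 37.7% of the ribosomal protein genes, 14.7% of the tested genes and 36.2% of the mitochondrial genes. AAGATGGC was in 8.2% of the ribosomal protein genes, 3.9% of the tested genes and 17.4% of the mitochondrial genes. For CACGTG the shares were 6.6%, 9.3% and 7.2%, and for TATAAA 9.8%, 9.7% and 5.8%. The annotated start can differ from the start used in DRG, and a string is not a binding site.

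After injury the ribosomal protein genes were slightly higher as a group, and none was lower by the test. Of the 82 genes, 38 (46.3%) were called higher at an adjusted p under 0.05 by limma's moderated test, against 11.5% of all genes tested. None was called lower, against 13.9% of all genes. The rises were small. The 38 called genes rose by 0.17 (Rps9) to 0.45 (Rpl35) on the log2 scale, that is 1.12-fold to 1.36-fold. Over all 82 genes the median log2 fold change was 0.22 (1.17-fold) with a median standard error of 0.0777, and over all 20899 genes the median was 0.00. The log2 fold change was above 0 in 81 of the 82 genes, with Rpl27a at -0.01 as the exception. Every injured array lay above every uninjured array in 34 genes (41.5%), against 10.8% of all genes, and 33 of the 34 were among those called. Every injured array lay below every uninjured array in 0 ribosomal protein genes, against 13.1% of all genes.

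**Figure D1:**
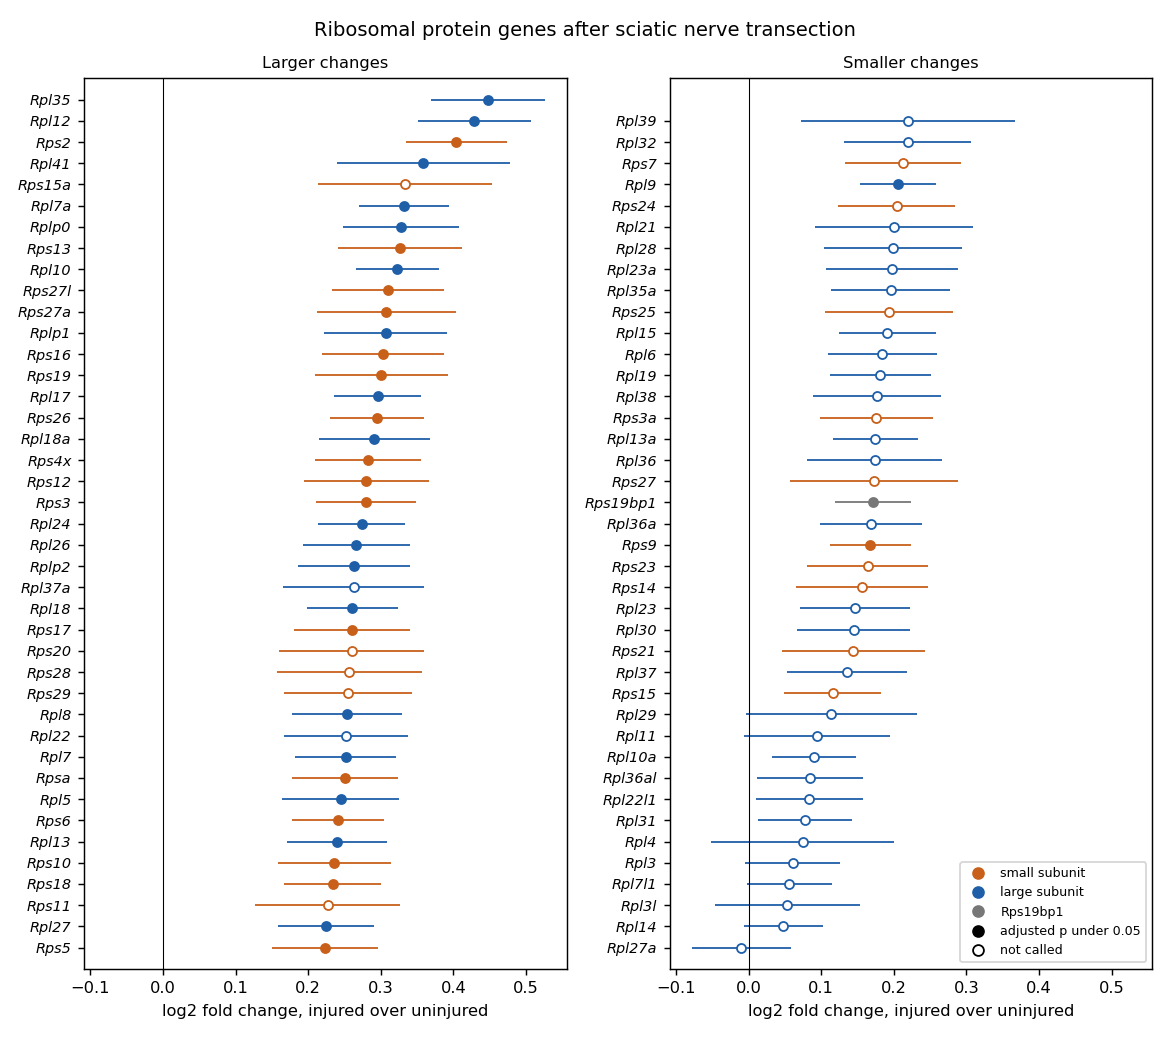
Log2 fold change, injured over uninjured, with its standard error for 81 of the 82 genes in rank order (x axis, log2 scale), in 2 columns. Filled points passed the test (adjusted p under 0.05), open points did not, and the points run from 0.45 for Rpl35 to -0.01 for Rpl27a with filled points mostly in the upper ranks.

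These values were sensitive to how the arrays were put on one scale and to single arrays. With each array centred on its median in place of loess, 0 of the 82 genes were called against 4.66% of all genes called higher, and the excess over all genes was gone. The median was then 0.07 and 65 were above 0, against a median of -0.05 over all genes. From the Cy5 channel alone, 6 were called (7.32%), fewer than the 9.40% of all genes called higher, and the median was 0.08. When slide entered the fit as a fixed term, so that the comparison lay within the second slide, 0 were called against 3.02% of all genes, while the median was 0.24 and 77 genes were above 0. On that slide 64 genes had all 3 injured arrays above the 1 uninjured array. With slide as a random term 55 were called against 16.7% of all genes, but the correlation estimated within slides was negative (-0.207), which narrows the error of a comparison between slides. Without any ribosomal protein probe in the loess curve 38 were called (46.3%), against 11.5% of all genes called higher. No alternative called a ribosomal protein gene lower.

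The brightness of the probes moved with the result. The ribosomal protein probes were very bright, with 74 of the 82 in the top 5% and 55 in the top 1% of all genes by mean signal of both channels, and no spot was saturated. The other 971 genes in the top 5% had a median log2 fold change of 0.09, with 223 called higher and 49 lower. The other 154 genes in the top 1% had a median of 0.18, with 50 called higher and 2 lower. Both sets hold 5 ribosomal proteins under other names. Without them the medians were 0.088 and 0.17, with 219 of 966 and 46 of 149 genes called higher. With arrays centred on the median of the other genes in the top 5%, 25 ribosomal protein genes were called higher. These were 30.5% of the 82, against 8.52% of all genes. The median of the ribosomal protein genes was then 0.16, and 29.8% of all called genes were higher in place of 45.2%. What brightness contributed to the ribosomal protein values was not tested further.

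The ribosomal protein genes moved together from array to array, also within a group. Relative to the mean of the 4 uninjured arrays, their median log2 level was 0.13, 0.31, 0.18, 0.23 and 0.25 on injured arrays 1 to 5. It was 0.01, -0.16, 0.08 and 0.06 on uninjured arrays 1 to 4. All 5 injured arrays lay above all 4 uninjured arrays, with injured 1 closest to uninjured 3. The array uninjured 2 stood low, with the lowest of the 4 uninjured levels in 72 of the 82 genes, and injured 2 held the highest of the 5 injured levels in 44 genes. Without uninjured 2, 18 genes were called (22.0%, against 9.61% of all genes called higher) and the median was 0.18. Without uninjured 1, injured 2 or injured 4 the counts were 19, 20 and 22 (23.2%, 24.4% and 26.8%). Of all genes 8.89%, 9.39% and 9.36% were called higher in those fits. Residuals around the group means had a median correlation of 0.571 over the 3321 pairs of ribosomal protein genes. Over pairs of the other genes in the top 5% it was 0.173, a description over 9 arrays that share 1 processing. Pairs of the other genes in the top 1% alone were not examined. The array pattern was not particular to ribosomal protein genes. The other 154 genes in the top 1% had mean levels of 0.15, 0.30, 0.14, 0.25 and 0.26 on injured arrays 1 to 5. On uninjured arrays 1 to 4 these were 0.03, -0.12, 0.03 and 0.06, with uninjured 2 again the lowest.

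**Figure D2:**
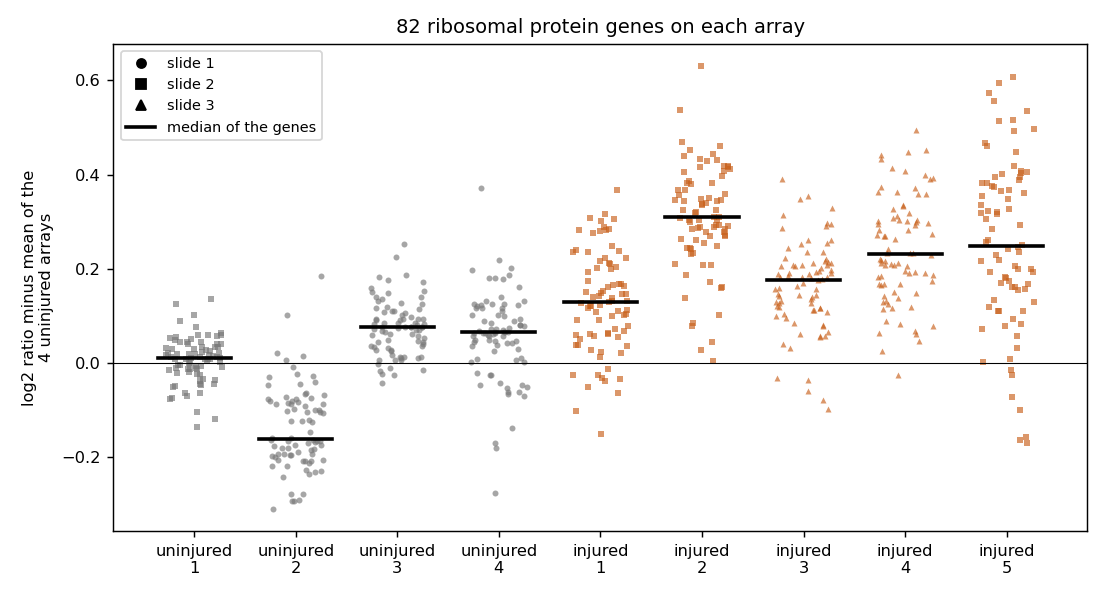
Log2 ratio of each of the 82 genes minus its mean over the 4 uninjured arrays (y axis, log2 scale) for every array, with a black bar at the median and the marker shape giving the slide. The bars of the injured arrays lie between 0.13 and 0.31 and those of the uninjured arrays between -0.16 and 0.08, with uninjured 2 the lowest.

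Genes of other cells moved with some of the same arrays. In bulk tissue, fewer or more cells of a type and less or more RNA per cell cannot be told apart. The 9 macrophage genes tested had a mean level (relative to uninjured) between -0.40 and 0.35 on uninjured arrays and between 0.11 and 1.06 on injured arrays, lowest on uninjured 2 and highest on injured 5 and injured 2, and 2 of the 9 (Aif1 and Cd14) were called higher. The 2 red blood cell genes tested, of 4 listed, lay between -0.12 and 0.22 on uninjured and between -0.06 and 1.45 on injured arrays, with none called. The 8 skeletal muscle genes reached 1.85 on injured 2 and 3.10 on injured 4, against -0.15 to 0.33 on the other injured and -0.07 to 0.10 on the uninjured arrays, with none called. The 5 Schwann cell genes lay between -0.49 (uninjured 2) and 0.36 on uninjured and between -0.12 and 0.68 on injured arrays, with none called. The 4 satellite glia genes lay between -0.15 and 0.13 on uninjured and between 0.05 and 0.43 on injured arrays, with 1 (Glul) called higher. Of the macrophage genes Ptprc and Cd14 were far below the reference, at -4.55 and -4.00 in uninjured DRG. The 6 genes of dividing cells lay between -0.06 and 0.03 on uninjured and between -0.01 and 0.60 on injured arrays, with 1 (Birc5) called higher. The 10 sensory neuron genes went the other way, with a median log2 fold change of -0.10, none called higher and 2 (Scn9a and Isl1) called lower. Their mean level was -0.30, -0.13, -0.25, -0.09 and 0.00 on injured arrays 1 to 5 and between -0.08 and 0.12 on the uninjured arrays. With injured 2, 4 and 5 left out together, the median of the ribosomal protein genes was 0.15, 79 of 82 were above 0, and 2 were called (2.44%), fewer than the 5.92% of all genes called higher in that fit. The part of these cells in the result was otherwise not tested.

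The largest rise was that of Rpl35, a protein at the rim of the tunnel through which the new chain leaves the ribosome. Its log2 ratio was -1.94, -2.18, -1.94 and -1.90 on uninjured arrays 1 to 4. On injured arrays 1 to 5 it was -1.71, -1.46, -1.60, -1.50 and -1.46. The groups did not overlap, and uninjured 2 was the lowest array. Rpl35 rose by 0.45 (standard error 0.0786, adjusted p = 0.00212 from limma; exact permutation p = 0.00794, two-sided, the smallest that 4 against 5 arrays allow).

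Rpl12, which sits at the base of the stalk of the large subunit, came next. Its log2 ratio was -2.20, -2.37, -2.12 and -2.12 on the uninjured and -1.90, -1.76, -1.85, -1.75 and -1.61 on the injured arrays. The groups did not overlap, and injured 5 was the highest. Rpl12 rose by 0.43 (standard error 0.0776, limma adjusted p = 0.00251). Rps2, a small subunit protein near the path of the mRNA, had log2 ratios of -1.86, -1.97, -1.83 and -1.79 on the uninjured and -1.55, -1.41, -1.57, -1.46 and -1.31 on the injured arrays. Again no injured array fell among the uninjured. Rps2 rose by 0.40 (standard error 0.0694, limma adjusted p = 0.00184). Its second probe gave 0.41, while the third did not pass the filter on dim probes. Rps2 was the only one of the 82 genes called under all 25 alternatives other than median centring (adjusted p = 0.162) and the fixed slide term (adjusted p = 0.0907).

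Rpl41, the smallest ribosomal protein, rose by 0.36 but with more spread (standard error 0.119, limma adjusted p = 0.0490). Its log2 ratio was -1.29, -1.61, -1.25 and -1.09 on the uninjured and -1.25, -0.88, -0.998, -0.91 and -0.74 on the injured arrays, so injured 1 lay among the uninjured arrays. Rps15a had a log2 fold change of 0.33 with a standard error of 0.120 and was not called (limma adjusted p = 0.0672), which made it the largest difference without a call. Rpl7a (0.33) and Rps13 (0.33) were called, each with groups that did not overlap.

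**Figure D3:**
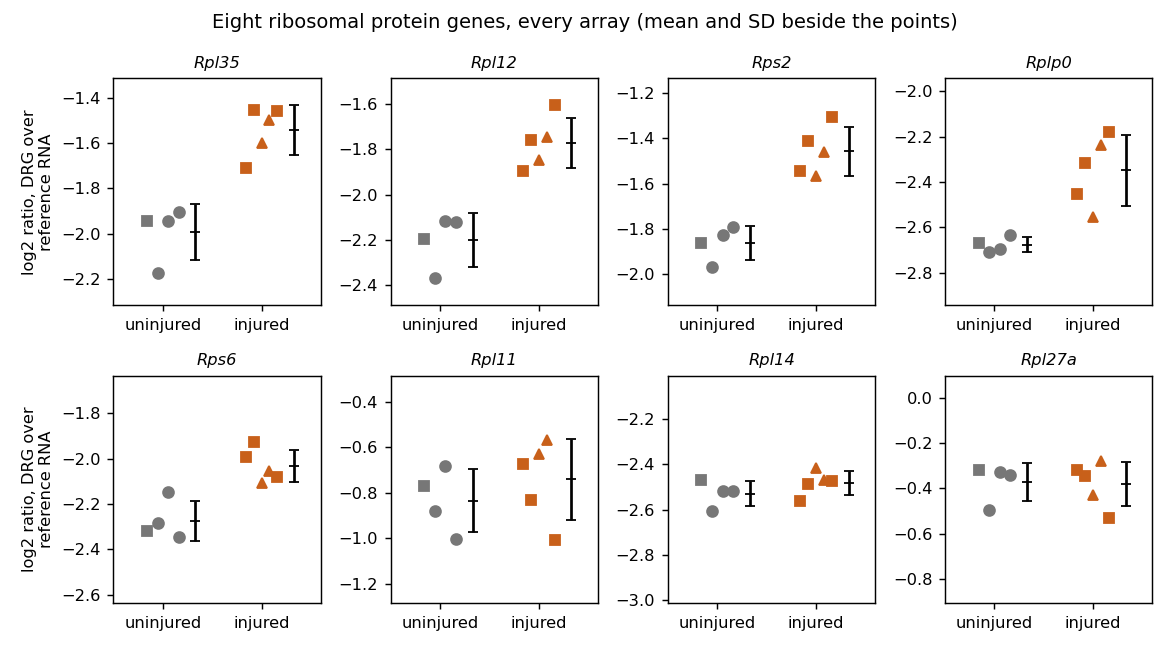
Log2 ratio of DRG over reference RNA (y axis) on every array for 8 genes, with grey points for uninjured and orange points for injured arrays, marker shapes for slides 1 (circle), 2 (square) and 3 (triangle), and the mean with its SD beside them. Groups are apart in Rpl35, Rpl12, Rps2, Rplp0 and Rps6 and overlap in Rpl11, Rpl14 and Rpl27a; each axis spans the same length of 1 log2 unit around its own middle.

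By subunit, 18 of the 32 small subunit genes were called higher (56.3%), with a median of 0.25 and a range of 0.12 (Rps15) to 0.40 (Rps2). Of the 49 large subunit genes 19 were called higher (38.8%), with a median of 0.20 and a range of -0.01 to 0.45. The difference between subunits was not tested. Rps19bp1 was called higher at 0.17 (standard error 0.0526).

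The 3 proteins of the acidic stalk, which recruits elongation factors to the large subunit, were all called higher. Rplp0 rose by 0.33 (limma adjusted p = 0.0127) from -2.67, -2.71, -2.69 and -2.63 on the uninjured to -2.45, -2.32, -2.56, -2.23 and -2.18 on the injured arrays. Its only probe under that name was placed on chromosome 8 in the files (build mm7), while RefSeq has the gene on chromosome 5, so the probe may also read a copy of the gene. A probe that the files name Arbp, an older symbol of Rplp0, was not taken by the name rule and rose by 0.29 (limma adjusted p = 0.0148), with groups apart. Of the other 81 probes used, 80 were on the gene's chromosome and 1 (Rpl10) had no position. Rplp1 rose by 0.31 and Rplp2 by 0.26, and in each of the 3 genes the groups were apart.

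Around the exit tunnel, 3 of 8 proteins (37.5%, against 46.3% of all 82 genes) were called higher, Rpl35, Rpl17 (0.30) and Rpl26 (0.27). The others lay between 0.08 (Rpl31) and 0.25 (Rpl22). Of the 5S particle, which carries 5S RNA into the large subunit and binds Mdm2 when ribosome assembly fails, Rpl5 was called higher at 0.24 (limma adjusted p = 0.0473). Its partner Rpl11 was at 0.09 and was not called. Rpl11 had log2 ratios of -0.77, -0.88, -0.68 and -1.01 on the uninjured and -0.67, -0.83, -0.63, -0.56 and -1.01 on the injured arrays. Injured 1, 3 and 4 lay above every uninjured array, while injured 5 was level with the lowest of them.

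Several ribosomal proteins are also known for other roles. Rps6, the protein that S6 kinases phosphorylate, rose by 0.24 (standard error 0.0633, limma adjusted p = 0.0178). Its log2 ratio was -2.32, -2.28, -2.15 and -2.34 on the uninjured and -1.99, -1.93, -2.11, -2.06 and -2.08 on the injured arrays, with no overlap and with uninjured 3 close to injured 3. Rps27a, made as a fusion with ubiquitin, rose by 0.31 with injured 1 among the uninjured arrays. Rpsa, also known as a laminin receptor, rose by 0.25, and Rps3, which has a role in DNA repair, by 0.28. Their second, dimmer probes gave 0.07 for Rpsa and 0.24 for Rps3. Rpl13a, a protein of interferon-controlled translation, had groups that did not overlap but missed the threshold (0.17, limma adjusted p = 0.0516). Rpl38, known from patterning of the mouse axial skeleton, was at 0.18 (limma adjusted p = 0.176). Of 12 genes listed for Diamond-Blackfan anaemia, 6 were called higher (50%, near the 46.3% of all 82 genes), Rps19 at 0.30 among them. The second probe of Rps19 gave 0.11. All 12 were above 0, as were 81 of the 82 genes.

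At the lower end of the range Rpl27a gave -0.32, -0.49, -0.33 and -0.34 on the uninjured and -0.32, -0.34, -0.43, -0.28 and -0.53 on the injured arrays. The groups overlapped, and the difference was -0.01 (standard error 0.0685). Rpl14 gave -2.47, -2.61, -2.52 and -2.52 on the uninjured and -2.56, -2.49, -2.42, -2.47 and -2.47 on the injured arrays, a difference of 0.05 (standard error 0.0549). Both had long pyrimidine runs at the annotated start, as printed above. The median log2 fold change was 0.19 over the 25 genes with a run and 0.24 over the 36 without. The 36 include genes whose pyrimidine stretch opens with T, which the rule for runs left out.

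Of the 40 genes with several probes, 5 had probes of opposite sign. The second probes of Rpl21, Rpl22 and Rpl37 gave -0.09, -0.19 and -0.08, against 0.20, 0.25 and 0.14 for the brighter probes, that of Rps20 gave -0.01 against 0.26, and that of Rpl27a gave 0.18 against -0.01. Over all 133 probes, 128 were above 0 with a median of 0.20. Ribosomal protein genes have many processed copies in the genome, and whether these probes also hybridised to transcripts of such copies was not tested.

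For 5 pairs of a ribosomal protein gene and a related gene, the change of the related gene minus that of its partner was compared on each array, a value that a shift common to the array does not change. Rpl7l1 minus Rpl7 changed by -0.20 after injury (exact permutation p = 0.0238, two-sided, 0.0926 after adjustment over the 5 pairs). Rpl22l1 minus Rpl22 changed by -0.17 (exact p = 0.0476, adjusted 0.0926) and Rpl36al minus Rpl36a by -0.08 (exact p = 0.0556, adjusted 0.0926). None of the 5 passed the adjustment. The sign for Rpl22l1 and Rpl22 depends on the Rpl22 probe, since the second probe of Rpl22 gave -0.19. Over the mean of each gene's probes Rpl22 was at 0.033 and Rpl22l1 at 0.13, the opposite order. The pairs were not tested in that setting. With median centring Rpl7l1 minus Rpl7 changed by -0.13, Rpl22l1 minus Rpl22 by -0.15 and Rpl36al minus Rpl36a by -0.06. What brightness contributed to these differences was not tested. Rps27l, a p53-induced relative of Rps27, was called higher alone at 0.31 (limma adjusted p = 0.0140), and Rps27 at 0.17 was not. The difference between them was 0.14 and did not pass (exact p = 0.270, adjusted 0.337). Rpl3l, the form of Rpl3 of skeletal and heart muscle, was at 0.05 and Rpl3 at 0.06, with a difference of -0.01 (exact p = 0.913). The probe of Rpl3l was the dimmest of the set, brighter than 15.9% of genes, and its level was highest on injured 4, at 0.73 against 0.21 to 0.50 on the other injured arrays. Injured 4 was also the array highest in muscle genes.

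Ribosomal proteins under names of another kind gave like values. Fau, a fusion with small subunit protein S30, rose by 0.30 and Rack1, a signalling protein on the head of the small subunit, by 0.28.

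Mitochondrial ribosomal proteins, which serve the separate ribosome inside mitochondria, lay on the other side. Of 78 tested, 24 (30.8%) were called lower against the 13.9% of all genes, 1 (Mrpl9, at 0.36) was called higher, and the median was -0.15. The largest fall was that of Mrpl44 (-0.40). Relative to uninjured, the mean level of the 78 genes was between -0.15 and -0.11 on the 5 injured and between -0.04 and 0.03 on the 4 uninjured arrays. With median centring 4 of the 78 were called lower, beside 1664 of all 20899 genes. With slide as a fixed term 2 of the 78 were, beside 545 of all 20899 genes. Under both, the excess over all genes was gone.

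Of 76 tested genes for the assembly of ribosomes, 20 (26.3%, against 11.5% of all genes) were called higher and 2 lower, with a median of 0.09. The largest rise was that of Surf6, a nucleolar protein, at 0.79, followed by Sbds, which helps to release Eif6 from new large subunits, at 0.67. Nop58, a core protein of the box C/D particles that guide RNA methylation, rose by 0.56, and Eif6 itself by 0.54. Dimt1, a methyltransferase of 18S RNA, fell by 0.36. Of 17 genes for RNA polymerase I and its control, 3 were called higher (17.6%, against 11.5% of all genes) and 1 lower. Cd3eap, a polymerase I subunit, was at 0.74 and Myc at 0.54, and Rrn3 was called lower at -0.20. Taf1b, the lowest of the list, was at -0.46 and was not called.

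Of 19 other mRNAs known for a TOP start, 4 were called higher (21.1%, against 11.5% of all genes) and 1 lower, with a median of 0.11. Their probes were bright too, at the median brighter than 98.2% of genes. Among the other 971 genes in the top 5%, 223 were called higher, so no rise beyond that of bright genes was shown for this list. Eef1b2, a nucleotide exchange factor of elongation factor 1, rose by 0.74, Pabpc1, the poly(A) binding protein, by 0.60 and Gas5, a host of small nucleolar RNAs, by 0.40. Nap1l1, a histone chaperone, fell by 0.25. Of 14 elongation and termination factors, which share 5 genes with the TOP list, 5 were called higher (35.7%, against 11.5%) and 2 lower (14.3%, against 13.9%). Their median was 0.21, and Gspt2, a release factor, had the largest fall at -0.58. The mTOR and S6 kinase list had 3 genes called higher and 3 lower of 25, each 12% and near the shares of all genes (11.5% and 13.9%), with a median of -0.12. Eif4ebp1, the translation repressor that mTOR switches off, was the highest at 1.098 and Rragb, a GTPase that recruits mTOR to the lysosome, the lowest at -0.82. Mtor, Rps6kb1 and Larp1, which binds TOP mRNAs, were at -0.13, -0.10 and -0.19 and were not called.

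**Figure D4:**
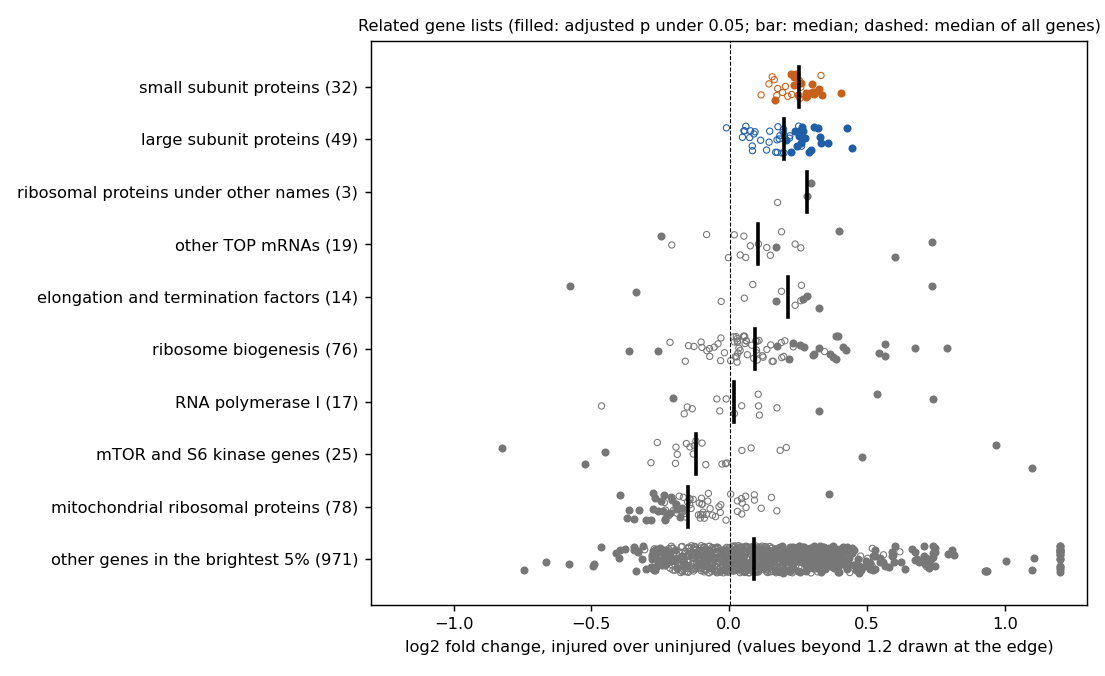
Log2 fold change, injured over uninjured (x axis, log2 scale, values beyond 1.2 at the edge), for the small and large subunit genes and for related lists, with the number of genes tested in brackets, filled points for adjusted p under 0.05, a bar at each list's median and a dashed line at the median of all genes. The bars lie at 0.25 and 0.20 for the subunits, 0.09 for ribosome assembly, -0.15 for mitochondrial ribosomal proteins and 0.09 for the other genes in the brightest 5%.

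Against the reference RNA, 80 of the 82 ribosomal protein genes were below 0 in both groups, with a median of the mean log2 ratios of -1.96 in uninjured and -1.72 in injured DRG, and Rpl21 and Rpl3l were above 0 in both.

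**Figure D5:**
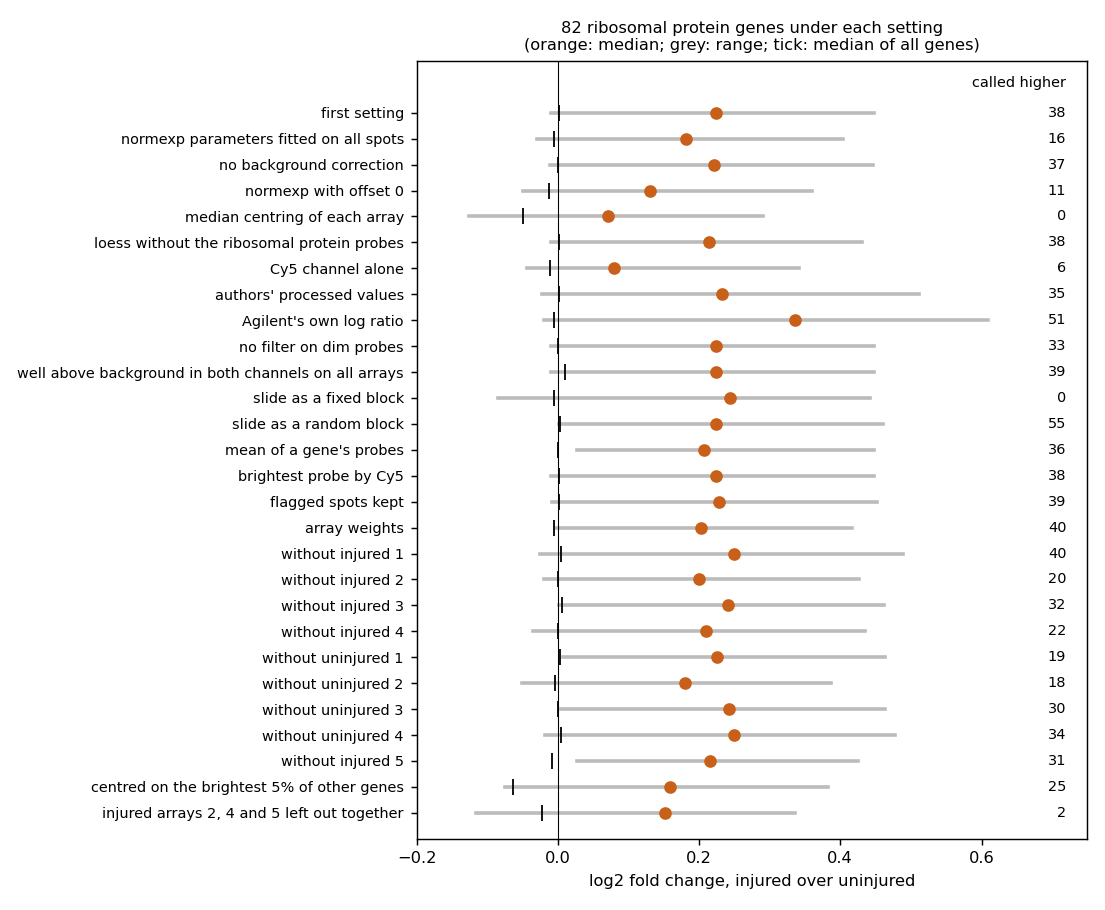
Log2 fold change of the 82 genes (x axis) under the first setting and 27 alternatives, with an orange point at their median, a grey line from the lowest to the highest gene, a tick at the median of all genes and, at the right, the number called higher. The median is above 0 in every setting, from 0.07 with median centring to 0.34 with Agilent's own ratio, while the number called runs from 0 to 55.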

How the data were processed

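Each array was deposited as a scanner file of Agilent Feature Extraction (version 10.5.1.1 in the submitters' processing notes), with the mean and background intensity of each spot in Cy5 (DRG) and Cy3 (reference). The same files hold Agilent's own log10 ratio, and the authors' value table holds log2 ratios per probe. The intensity columns as deposited were corrected with normexp (offset 50), whose parameters were fitted without spots of non-uniform local background, and normalized by loess within each array in limma 3.58.1 (R 4.3.3). On 9 arrays the slope against the authors' log2 values was 1.00 to 1.01 per probe. Control spots and spots with an outlier mark were left out. Probes with Cy5 well above background on at least 4 arrays entered, the brightest per gene was used, and p-values of lmFit and eBayes were adjusted by Benjamini-Hochberg over 20899 genes at 0.05. Single values were also tested over all 126 splits of 4 against 5 arrays, two-sided. The labels number no replicates, so arrays were numbered in accession order, and the number of arrays limits the precision. Probe names were updated through RefSeq accessions for 22823 probes and through symbols or older names for 6642 and 3107, and 8458 kept the name in the file. On simulated data with 200 changed genes among 20899, this comparison found 94% of log2 changes of size 1 and 70% of those of size 0.5, with 6.29% of calls false. The ribosomal protein changes were all smaller than these sizes. The simulated errors were independent between genes, unlike those of the ribosomal protein genes, so these rates do not carry over to them.

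Genes were named by role (stalk, 5S particle, other known functions), by membership in a related pair, as the 8 largest called changes, at both ends of the fold changes, as the highest and lowest of each related list, or because their probes disagreed. Not every gene under this rule is reported here. Other genes in the text were chosen after their values were seen. The genes and lists were chosen with earlier results of these data known. The 27 alternatives changed the background correction, the normalization, the filter, the probe per gene, the slide term, the weights or the arrays used.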

Additional observations from a re-analysis of the deposited data

Results flagged for a closer look

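In the named genes, 98 groups of 4 or 5 arrays were checked for a single array far from the others, by the gap to the nearest array as a share of the whole range, and 6 stood out. Chance gives about 1 in 20 such groups. In 4 of the 6 the array was uninjured 2, which was low for Rplp1 (log2 ratio -1.57), Rps27l (-2.03), Rpl35 (-2.18) and Rpl27a (-0.494). Uninjured 3 was high for Rpl5, at -1.62, where it overlapped the injured arrays. Uninjured 4 was apart for Rragb, at 2.43. The part of uninjured 2 in the count of ribosomal protein genes is given by the fit without it. There 18 were called (22.0%, against 9.61% of all genes called higher) and the median was 0.18.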

How the results depend on the processing

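No paired analysis was possible because neither replicate numbers nor animals are given for these samples. The alternative that leaves out saturated spots was not run, since 0 spots were saturated. The centring on bright genes, the fit without injured 2, 4 and 5, and the counts of related lists under the alternatives were chosen after seeing the data.

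The count of ribosomal protein genes called higher (38) was 16 with the background fitted on all spots, 11 with an offset of 0, 0 with median centring, 6 from Cy5 alone, 0 with slide as a fixed term, 25 with centring on the other bright genes and 2 without injured 2, 4 and 5. Leaving out each array in turn gave 18 to 40 (22.0% to 48.8%), against 8.89% to 11.9% of all genes called higher. The median (0.22) was 0.13 with an offset of 0, 0.070 with median centring, 0.079 from Cy5 alone and 0.34 with Agilent's ratio, and 0.18 to 0.25 without each array. The count over all genes (5302) was 2638 with median centring, 1177 with the fixed slide term, 2755 without injured 2, 4 and 5 and 4015 to 5437 without each array. The share of called genes that were higher (45.2%) was 36.9% with median centring and 29.8% with centring on bright genes. Median centring, the fixed slide term and the fit without the 3 arrays gave 3, 3 and 11 assembly genes called higher (20), with 15 to 23 without each array. Of all genes 4.66%, 3.02% and 5.92% were called higher under those 3 alternatives. Mitochondrial ribosomal protein genes called lower (24) were 4, 2 and 8 under the same 3, 37 with a random slide term, 42 with centring on bright genes and 15 to 26 without each array. Over all genes 1664, 545 and 1517 were called lower under the same 3, 3914 with a random slide term and 4195 with centring on bright genes.

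Some genes changed sign, Rpl38 (0.18), Rps27 (0.17) and Rpl36a (0.17) among them. With median centring Rpl3 was at -0.097, Rpl11 at -0.076, Rpl14 at -0.051, Rpl22l1 at -0.044, Rpl36al at -0.039, Rpl7l1 at -0.038 and Rpl37 at -0.016. From Cy5 alone Rpl3 was at -0.035, Rpl38 at -0.033, Rpl14 at -0.029, Rpl7l1 at -0.027, Rpl22l1 and Rpl36al at -0.020, Rpl36a at -0.0079 and Rpl37 at -0.0069. With the fixed slide term Rpl3l was at -0.085, Rpl7l1 at -0.072, Rpl11 at -0.065 and Rpl14 at -0.036. With an offset of 0 Rpl3 was at -0.035 and Rpl11 at -0.020. With centring on bright genes Rpl14 was at -0.017, Rpl3l at -0.011, Rpl7l1 at -0.0088 and Rpl3 at -0.0044. Rpl3l was at -0.012 with the background fitted on all spots, -0.015 with Agilent's ratio, -0.0041 with no background correction, -0.12 without injured 2, 4 and 5 (Rps27 then at -0.0036) and -0.027 to 0.10 without each array. Rpl27a was at 0.083 over the mean of its probes, 0.0011 with a random slide term and -0.051 to 0.027 without each array. Rpl3l minus Rpl3 was 0.13 with median centring, 0.0014 with loess without ribosomal protein probes and -0.074 to 0.064 without each array, and Rps27l minus Rps27 was -0.056 with the fixed slide term. In the single ribosomal protein genes named, 752 values under an alternative kept direction and call, 157 lost the call, 26 gained it and 37 changed sign. The cause of these changes was not tested.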
